A study of Mus musculus with 4 samples.

Results

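The 8 genes described here encode the nuclear end of the Hippo pathway in the mouse: the coactivators TAZ (gene Wwtr1) and YAP (Yap1), their DNA-binding partners TEAD1 to TEAD4 (Tead1, Tead2, Tead3 and Tead4), and the vestigial-like cofactors VGLL3 (Vgll3) and VGLL4 (Vgll4). They were taken by gene symbol from the 15424 genes of the deposited FPKM table, in which all 8 were listed. FPKM is the number of sequenced fragments of a gene, divided by the length of its transcript and by the size of the library. RNA came from tumors under the skin of nude mice, a strain without mature T cells. The shTaz tumors grew from R728T1 cells with knockdown of Taz, and the shLuc tumors from R728T1 cells with a luciferase shRNA as control. All tumors therefore share 1 cell line, which the labels derive from an Rb/P53 mouse model and call non-SMCs, without spelling the term out, and also small cell lung cancer. The labels list 2 samples for each group and the table holds 1 column per group, read as the authors' value for that group. There is no spread between replicates to test against, so every difference below is a difference between 2 columns without a replicate check. The age of the mice, the number of animals and the sequence targeted by the shRNA are not given in the sources used here.

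TAZ and YAP have no DNA-binding domain of their own. When the kinases of the Hippo pathway are active, they phosphorylate both coactivators, which are then held in the cytoplasm or degraded. When the kinases are inactive, TAZ and YAP enter the nucleus, bind TEAD proteins on the DNA and switch on genes of growth, adhesion and matrix. VGLL proteins bind the same face of TEAD through their own short TEAD-binding motif, and VGLL4 is known as a competitor of YAP. The contrast between the groups addresses what the knockdown of Taz changes in these tumors.

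TEAD proteins recognise the MCAT element, searched here as GGAATG and, for the other strand, as its reverse complement CATTCC. The RefSeq promoter table of GRCm38.p6 holds 6 of the 8 genes, and 5 of them (Wwtr1, Yap1, Tead3, Vgll3 and Vgll4) have this motif within 250 bases upstream of an annotated start. Tead2 has none in its window. For scale, 12.6% of the 32851 promoter windows and 14.4% of the 27025 genes in the table have at least 1 match. Wwtr1 has 2 annotated starts and Tead3 has 3, so these genes had more windows in which to match. The promoters of the genes for both coactivators are shown because the results turn on these genes, and those of Ccn1 and Ankrd1 because these are classical YAP and TAZ targets whose RNA is given below. Of the 22 listed targets 15 are in the promoter table, and 6 of these have the motif: Ccn1, Ankrd1, Amotl2, Ptpn14, Axl and Crim1. The AP-1 motif TGANTCA is in 6.75% of all windows and in none of those of the 6 genes. Capitals mark the MCAT letters. A match is a match of letters, not a measured binding site. The windows are those of Wwtr1 (chr3:57575911-57576160), Yap1 (chr9:8004597-8004846), Ccn1 (chr3:145649986-145650235) and Ankrd1 (chr19:36119845-36120094), all on the minus strand of GRCm38.p6.
Wwtr1: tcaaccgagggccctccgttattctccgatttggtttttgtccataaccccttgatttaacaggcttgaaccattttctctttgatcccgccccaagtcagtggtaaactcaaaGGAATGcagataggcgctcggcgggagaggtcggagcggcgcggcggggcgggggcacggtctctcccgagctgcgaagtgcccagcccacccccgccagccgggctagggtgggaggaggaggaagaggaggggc
Yap1: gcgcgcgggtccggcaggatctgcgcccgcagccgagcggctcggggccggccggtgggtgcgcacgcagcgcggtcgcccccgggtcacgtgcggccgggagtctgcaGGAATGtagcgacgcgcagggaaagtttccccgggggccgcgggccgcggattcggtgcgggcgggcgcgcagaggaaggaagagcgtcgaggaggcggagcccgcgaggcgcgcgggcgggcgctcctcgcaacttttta
Ccn1: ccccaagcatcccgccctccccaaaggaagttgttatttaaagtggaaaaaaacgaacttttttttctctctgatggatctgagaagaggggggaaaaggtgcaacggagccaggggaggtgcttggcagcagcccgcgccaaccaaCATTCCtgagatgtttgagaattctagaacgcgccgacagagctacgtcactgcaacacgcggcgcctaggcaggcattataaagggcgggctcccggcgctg
Ankrd1: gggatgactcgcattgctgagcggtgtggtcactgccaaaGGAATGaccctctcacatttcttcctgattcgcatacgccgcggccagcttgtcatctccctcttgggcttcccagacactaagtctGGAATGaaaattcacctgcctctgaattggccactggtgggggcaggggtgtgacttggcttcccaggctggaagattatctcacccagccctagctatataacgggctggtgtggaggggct
The match begins 136 bases upstream of the start in Wwtr1 and 141 bases upstream in Yap1. In Ccn1 it begins 103 bases upstream and lies on the opposite strand. Ankrd1 has 2 matches, which begin 210 and 123 bases upstream.

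Wwtr1, the gene of TAZ and here taken as the target of the knockdown, had 15.1 FPKM in the shTaz column and 23.4 FPKM in the shLuc column. The knockdown column thus kept 64.5% of the control level, and Wwtr1 was second to Tead2 among the 8 genes there, whereas it was the most abundant of them in the shLuc column. In the shTaz column 76.6% of all listed genes lay below it, against 84.2% in the shLuc column. In mm10, Wwtr1 spans bases 57455649 to 57575910 of chromosome 3 (minus strand) and has 7 exons in its longest transcript of 4697 bases. Since these are whole tumors, fewer cells of a type and less RNA per cell cannot be told apart, and host cells in the tumor can contribute RNA of any of these genes. The symbol Taz in the table belongs to another gene, tafazzin, a mitochondrial enzyme of cardiolipin remodelling, which had 9.50 FPKM in the shTaz column and 13.7 FPKM in the shLuc column. On the log2 scale defined below the difference of tafazzin was -0.48, beside -0.60 for Wwtr1. Which of both genes the shRNA matches was not tested.

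Yap1, which encodes the sister coactivator, had 12.0 FPKM in the shTaz column and 8.59 FPKM in the shLuc column. Wwtr1 and Yap1 thus differed in opposite directions as deposited, although Yap1 was at -0.02 on a log2 scale once the GC and length trends described below were removed. The ratio of Wwtr1 to Yap1 within a column does not depend on scaling, and it was 1.26 in the shTaz column against 2.72 in the shLuc column. Wwtr1 made up 55.7% of the summed Wwtr1 and Yap1 FPKM in the shTaz column and 73.1% in the shLuc column. The sum of both was 27.1 FPKM in the shTaz column and 32.0 FPKM in the shLuc column. TAZ RNA was the more abundant of the coactivator RNAs in both columns. Yap1 spans bases 7931999 to 8004596 of chromosome 9 (minus strand), and 116 bases of its exons overlap the noncoding gene Gm20416 on the opposite strand. Whether reads were counted by strand is not given in the sources used here.

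**Figure D1:**
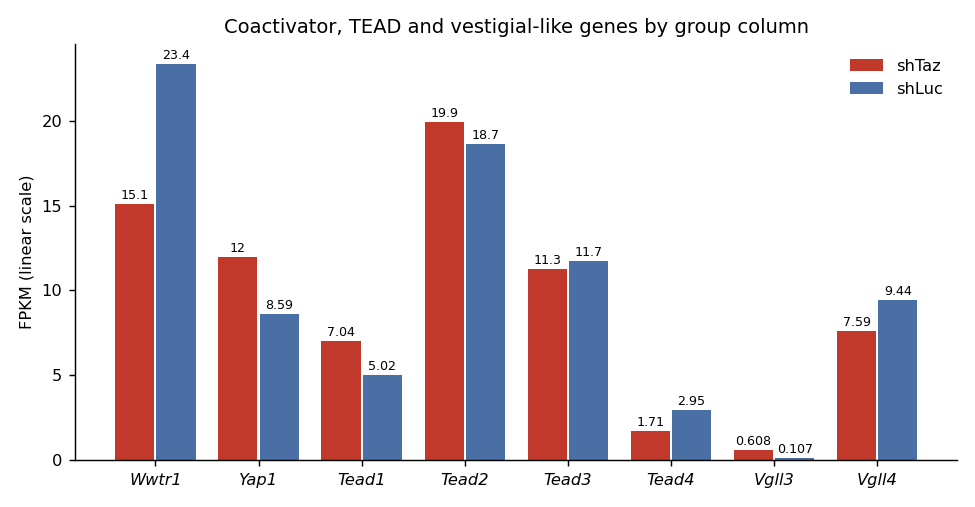
FPKM of the 8 genes (vertical axis, linear) in the shTaz column (left bar of each pair) and the shLuc column (right bar), 1 value per group and no error bars because no replicate values are in the table. Wwtr1 is the gene with the widest gap in FPKM, 15.1 against 23.4, and Tead2 and Tead3 have nearly equal bars.

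Tead2 was the most abundant TEAD gene by FPKM in both columns. TEAD2 is known in the mouse as a TEAD of early embryonic and neural tissues. It had 19.9 FPKM in the shTaz column and 18.7 FPKM in the shLuc column. Wwtr1 lay below Tead2 in the shTaz column and above it in the shLuc column, with a ratio of Wwtr1 to Tead2 of 0.757 in the shTaz column and 1.25 in the shLuc column. Tead2 spans bases 45215753 to 45233644 of chromosome 7 (plus strand) and shares 13 exon bases with Cd37 on the other strand.

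Tead3, a TEAD gene known from the human placenta, had 11.3 FPKM in the shTaz column and 11.7 FPKM in the shLuc column. Tead1, needed for heart development in the mouse, had 7.04 FPKM in the shTaz column and 5.02 FPKM in the shLuc column. Tead4, needed to form the trophectoderm of the mouse embryo, was the lowest of the family, with 1.71 FPKM in the shTaz column and 2.95 FPKM in the shLuc column. By FPKM the order Tead2, Tead3, Tead1 and Tead4 was the same in both columns. Tead1 spans bases 112679318 to 112906807 of chromosome 7 (plus strand). Tead3 spans bases 28331671 to 28350817 of chromosome 17 (minus strand), and Tead4 bases 128224288 to 128300823 of chromosome 6 (minus strand).

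The summed FPKM of the TEAD genes was 39.9 in the shTaz column and 38.3 in the shLuc column. The family as a whole was thus close to level as deposited. All listed genes summed to 427921 FPKM in the shTaz column and 501728 FPKM in the shLuc column. Division by these sums was not among the alternatives run. Within the TEAD family Tead2 made up 49.9% in the shTaz column and 48.6% in the shLuc column. Tead1 made up 17.6% in the shTaz column and 13.1% in the shLuc column, and Tead4 made up 4.28% in the shTaz column and 7.69% in the shLuc column. The ratio of Tead1 to Tead4 was 4.12 in the shTaz column and 1.70 in the shLuc column. These shares and ratios are not corrected for the trends with GC content and length described below. The log2 differences of Tead1 and Tead4 were 0.42 and -0.54 as reported, against 0.06 and -0.28 with both trends removed. FPKM divides by transcript length, and the length that the authors used is not given. Multiplied by the length of the longest annotated transcript, which puts the share on the scale of fragments, Tead1 made up 38.6% in the shTaz column and 30.7% in the shLuc column. Tead2 made up 37.2% in the shTaz column and 38.9% in the shLuc column on that scale. Tead1 thus lay above Tead2 in the shTaz column and below it in the shLuc column, so their order by FPKM does not carry over to fragments. The change of order between the columns is as deposited. The log2 differences of Tead1 and Tead2 were 0.42 and 0.09 as reported, against 0.10 and 0.36 with the GC trend removed. The coactivator sum divided by the TEAD sum was 0.678 in the shTaz column and 0.834 in the shLuc column.

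**Figure D2:**
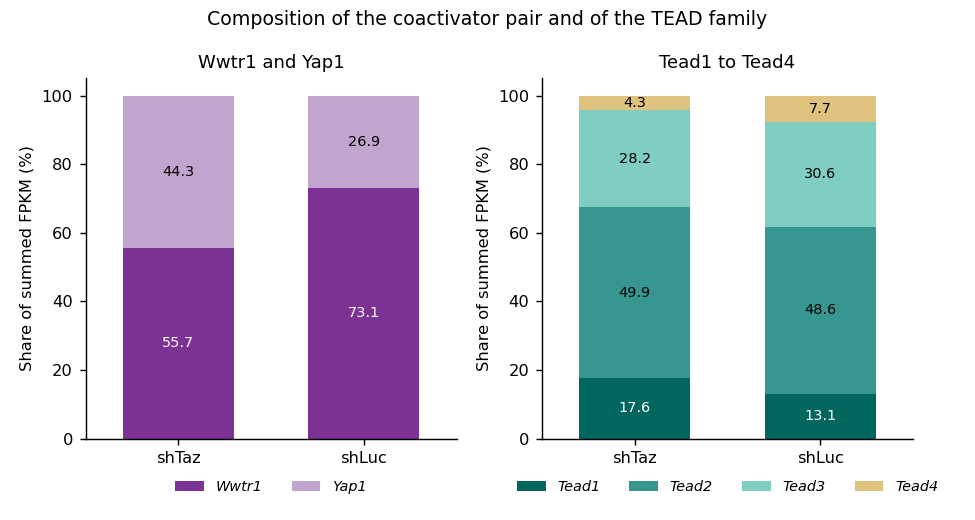
Share of the summed FPKM (vertical axis, percent) held by Wwtr1 and Yap1 (left panel) and by the TEAD genes (right panel), with the shTaz column left of the shLuc column in each. Wwtr1 held 55.7% of the pair in the shTaz column and 73.1% in the shLuc column, while the Tead2 share was 49.9% and 48.6% in the same order.

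Vgll4 had 7.59 FPKM in the shTaz column and 9.44 FPKM in the shLuc column. Relative to the TEAD sum it was at 0.190 in the shTaz column and 0.246 in the shLuc column, and relative to the sum of both coactivators at 0.280 in the shTaz column and 0.295 in the shLuc column. Vgll4 thus kept nearly the same proportion to the coactivator sum in both columns, and a lower one to the TEAD sum in the shTaz column. That coactivator sum joins Wwtr1, lower in the shTaz column, with Yap1, higher there as deposited. The ratio of Wwtr1 to Vgll4 was 1.99 in the shTaz column and 2.48 in the shLuc column. Vgll4 spans bases 114860628 to 114969994 of chromosome 6 (minus strand).

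Vgll3, a cofactor gene known from mesenchymal and muscle cells, had 0.608 FPKM in the shTaz column and 0.107 FPKM in the shLuc column. Both values are under 1 FPKM, the mean below which genes were left out of the differences, and in the shLuc column 7.42% of all listed genes lay lower. On the log2(FPKM + 1) scale the difference was 0.54, and without the added 1 it was 2.51, so its size rests on the treatment of low values. Of the other vestigial-like genes, Vgll2 was at 0.450 FPKM in the shTaz column and listed at 0 in the shLuc column. Vgll1 was not listed in the table, which holds no gene at 0 in both columns. Vgll3 spans bases 65815257 to 65866368 of chromosome 16 (plus strand).

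The difference of a gene is given below as log2((shTaz FPKM + 1) / (shLuc FPKM + 1)), for the 11650 genes whose 2 columns averaged 1 FPKM or more. It understates the change of low genes. A difference of at least 1 on this scale, up or down, is called 2-fold. Of the 7 members with enough signal, 0 differed 2-fold, and over all genes 7.21% did, 3.96% upward and 3.25% downward in the shTaz column. This split moved with the scaling, since 461 genes were upward and 379 downward as reported, against 309 and 494 with median-ratio scaling and 166 and 350 without the GC trend. The differences were -0.60 for Wwtr1, -0.54 for Tead4, -0.28 for Vgll4, -0.05 for Tead3, 0.09 for Tead2, 0.42 for Tead1 and 0.44 for Yap1. Their median was -0.05, beside 0.12 over all genes, whose middle 50% lay between -0.24 and 0.46. Yap1, Tead1, Tead2 and Tead3 lay inside that middle range and Vgll4 just below it, while 9.36% of genes lay lower than Wwtr1 and 11.2% lower than Tead4.

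Base composition of the longest transcript separated the members into an AT-rich and a GC-rich set, and Wwtr1 was the AT-rich member below 0. Across all genes, transcripts poor in G and C tended to have more FPKM in the shTaz column, and transcripts rich in them less. The genes were divided by GC content into 10 bins of equal size, and the median difference was 0.56 in the bin of lowest GC content and -0.38 in the bin of highest. The members fall on both sides of this trend. Yap1 (45.2% GC) and Tead1 (46.5%) are AT-rich in their longest transcripts. The medians of their bins were 0.36 and 0.28, close to their own differences of 0.44 and 0.42. For Yap1 this rests on the transcript chosen. Its longest coding transcript has 50.3% GC, which lies in a bin with a median of 0.08. Tead2 (57.9%), Tead3 (58.1%), Tead4 (58.1%) and Vgll4 (56.1%) are GC-rich and fall into 1 bin with a median of -0.20 and a middle 50% from -0.46 to 0.03. The differences of Tead3 and Vgll4 lay inside this range, that of Tead2 above it and that of Tead4 below it.

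Wwtr1 is AT-rich too, at 43.9% GC, and its difference went against its bin. The median of that bin was 0.46, its middle 50% ran from 0.23 to 0.72, and 1.99% of its 1108 genes lay lower than Wwtr1. With the GC trend removed by a smoothed line (lowess), the Wwtr1 difference was -1.03, which is past 2-fold, and 2.92% of genes lay lower. Without the trends in both GC content and length it was -1.10. The direction of Wwtr1 was the same in all 10 alternatives run, from -1.14 to -0.60. Without the GC trend Yap1 was at 0.07, and without either trend at -0.02, so its direction was not kept, although it was 0.21 when GC content and length came from its longest coding transcript. The longest annotated Yap1 transcript has 2 exons, and the longest coding one has 9 exons and 50.3% GC.

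**Figure D3:**
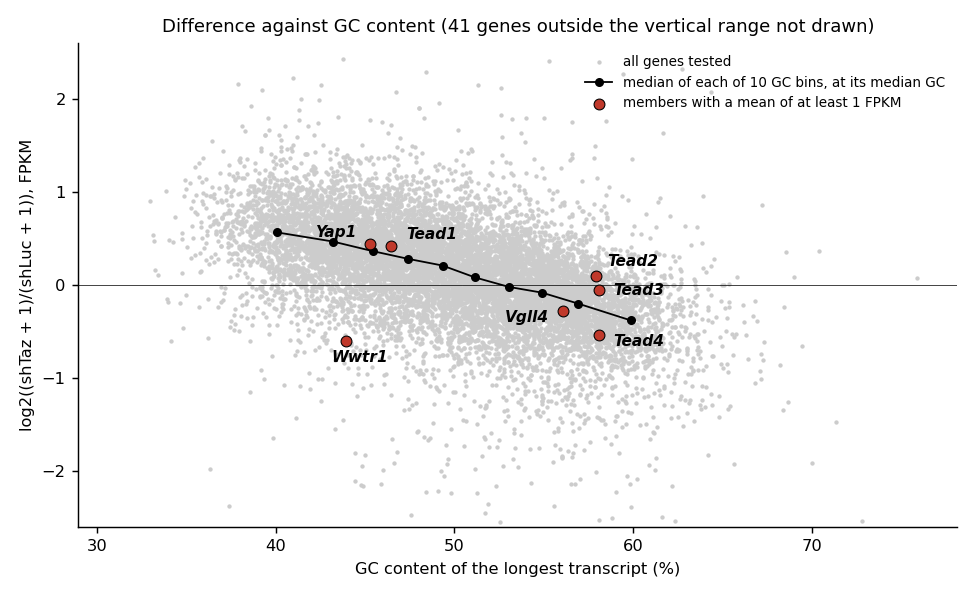
Difference between the columns on the log2(FPKM + 1) scale (vertical axis) against GC content of the longest transcript in percent (horizontal axis) for all genes tested (grey), with the median of each of 10 GC bins (black) and the 7 members that averaged 1 FPKM or more (red). Wwtr1 at -0.60 lies under the black line, which is at 0.46 for its bin, while Yap1 and Tead1 lie near it.

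Tead1 was higher in the shTaz column in all 10 alternatives, but only by 0.04 to 0.12 where the GC or length trend was removed. Tead4 was lower in each of the 9 alternatives that kept it, from -0.79 to -0.27, and Vgll4 in all 10, from -0.42 to -0.08. Tead2 and Tead3 had no stable direction. Tead2 was at -0.04 with median-ratio scaling and at -0.08 with the length trend removed, against 0.36 with the GC trend removed, and Tead3 was at 0.22 with the GC trend removed and at -0.22 with the length trend removed. Median-ratio scaling shifted the median of all genes to -0.00, against 0.12 as reported.

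**Figure D4:**
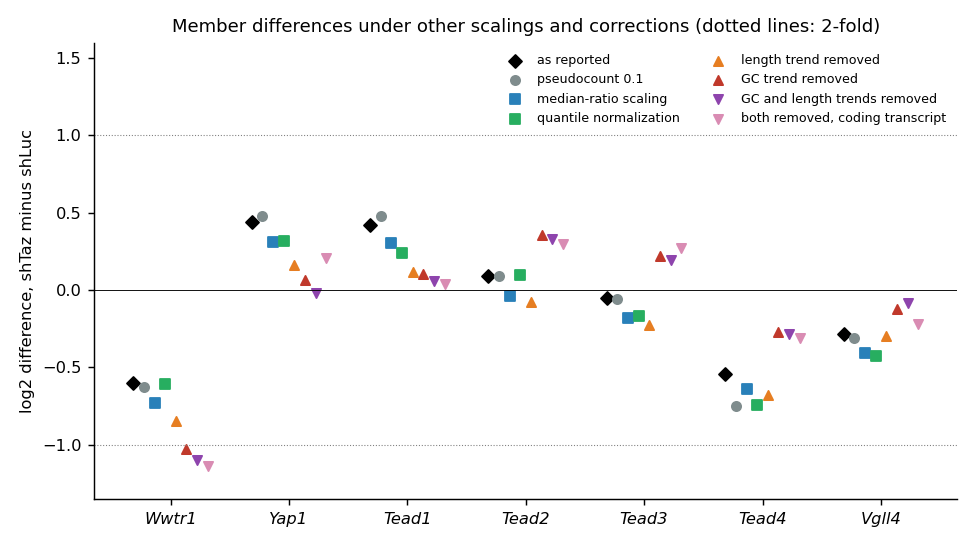
Log2 difference between the shTaz and shLuc columns (vertical axis) of the 7 members that averaged 1 FPKM or more, as reported (black diamonds) and under 7 of the alternatives (other symbols). The Wwtr1 symbols all lie at or below -0.60 and pass -1 where the GC trend was removed, while the symbols of Yap1, Tead2 and Tead3 lie on both sides of 0.

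The genes whose pair of values lay nearest to that of Wwtr1 over the 2 columns were Cdca3, Tmem179b and Pcdhgc3, by Euclidean distance of the log2(FPKM + 1) values among protein-coding genes. Cdca3 had 14.9 FPKM in the shTaz column and 23.1 FPKM in the shLuc column, a distance of 0.03. With 2 columns this likeness describes level and difference alone.

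Over all genes 3.25% were 2-fold lower and 3.96% 2-fold higher in the shTaz column. Among 20 measured genes of a list of 22 YAP and TAZ targets, 1 was 2-fold lower and 0 were 2-fold higher in the shTaz column. The gene past 2-fold was Cyr61 (now Ccn1), which encodes a matricellular protein, with 60.1 FPKM in the shTaz column and 155 FPKM in the shLuc column. Ankrd1, the other target whose promoter is printed above, had 4.17 FPKM in the shTaz column and 8.83 FPKM in the shLuc column, a difference of -0.93. Chosen after the values were seen, Igfbp3, an IGF-binding protein gene, had 104 FPKM in the shTaz column and 198 FPKM in the shLuc column, and the kinase gene Nuak2 had 18.02 FPKM in the shTaz column and 9.15 FPKM in the shLuc column. The list median was -0.08 against 0.12 over all genes, with 11 members below 0 and 9 above. It stayed below 0 in 9 of the 10 alternatives, down to -0.32 with the length trend removed, and was 0.03 with the GC trend removed. Targets thus lay on both sides of 0. So did those with the MCAT letters, since beside Ccn1 and Ankrd1 the differences were -0.52 for Amotl2, -0.06 for Ptpn14, 0.20 for Crim1 and 0.48 for Axl, while Igfbp3, which was lower, has no match.

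Of the genes that act on TAZ and YAP, 9 of 13 in the kinase core and 15 of 19 in retention and turnover had a difference above 0, beside 58.3% of all genes, and the medians of both lists were near 0 once the GC trend was removed. Of 13 measured genes of the kinase core, 2 were 2-fold higher and 0 lower, beside 3.96% and 3.25% of all genes. Mob1a, a kinase adaptor gene, had 7.56 FPKM in the shTaz column and 2.96 FPKM in the shLuc column. The MST2 kinase gene Stk3 had 11.3 FPKM in the shTaz column and 5.07 FPKM in the shLuc column. Neither was past 2-fold with median-ratio scaling, quantile normalization or removal of any trend, and with both trends removed Mob1a was at 0.60 and Stk3 at 0.40. The median of the 13 genes, 0.51, was 0.05 without the GC trend and -0.01 without either trend. The retention and turnover list includes genes of the 14-3-3 proteins that hold TAZ and YAP in the cytoplasm. Beside 3.96% higher and 3.25% lower over all genes, 1 of its 19 genes was 2-fold higher and 0 lower. It was Amot, the angiomotin gene, with 13.1 FPKM in the shTaz column and 2.36 FPKM in the shLuc column, and its difference of 2.07 was 1.68 with both trends removed. With the GC trend removed a second gene was past 2-fold, the 14-3-3 sigma gene Sfn, at 1.27 against 0.91 as reported. In that setting 166 of all 11084 genes with a GC content were 2-fold higher and 350 lower. The median of the retention and turnover list was 0.35, or -0.04 with the GC trend removed.

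For scale in the counts that follow, 3.96% of all genes were 2-fold higher and 3.25% lower as reported. Of 11 measured genes for other transcription factors that bind TAZ or YAP, 1 was 2-fold higher and 0 lower. It was Pparg, the adipogenic receptor gene, with 8.33 FPKM in the shTaz column and 1.95 FPKM in the shLuc column. The list median was 0.42, or 0.17 with the GC trend removed. Of 9 AP-1 genes, whose products bind next to TEAD at many enhancers, 1 was 2-fold lower and 0 higher. Jund had 103 FPKM in the shTaz column and 210.1 FPKM in the shLuc column, but at 67.1% GC its difference of -1.01 was -0.23 with both trends removed. With the GC trend removed the count was instead 2 higher and 0 lower, namely Fosl1 at 1.06 and Batf3 at 1.17, and it was the same with both trends removed. Of all 11084 genes with a GC content, 166 were 2-fold higher and 350 lower with the GC trend removed. With both trends removed the counts over all genes were 191 and 302. The median over the 9 AP-1 genes was 0.16, or 0.30 with the GC trend removed. None of the 15 coactivator genes differed 2-fold, and their median was 0.23, turning to -0.05 with the length trend removed and to -0.03 over those averaging 5 FPKM or more. The widest differences there were those of Ep300, an acetyltransferase gene, at 0.58 and Med1, a Mediator subunit gene, at 0.56.

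**Figure D5:**
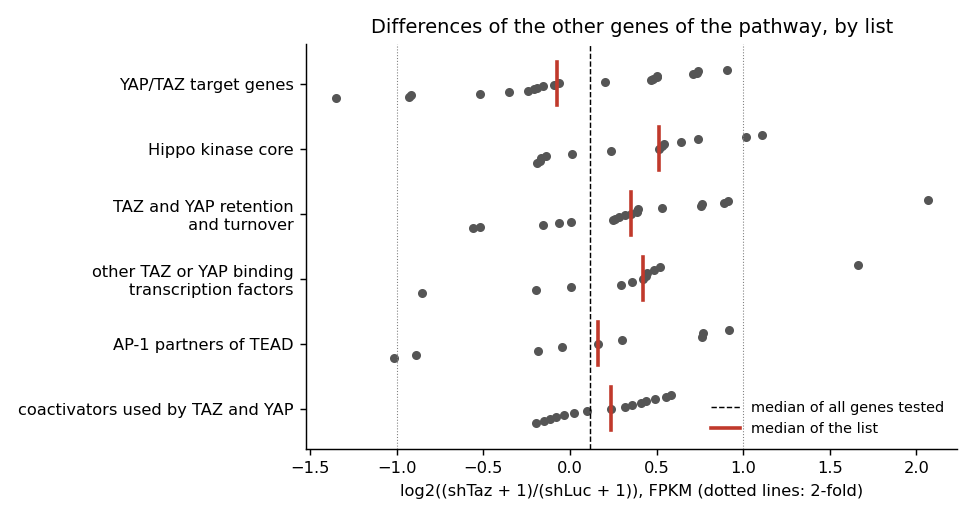
Difference between the columns on the log2(FPKM + 1) scale (horizontal axis) of each measured gene (points) in 6 lists of pathway genes, with the median of the list (red) and of all genes tested (dashed, 0.12). Points past the dotted lines differ 2-fold, and the target list is the one with its median below 0, at -0.08.

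Markers of other cells differed between the columns too, and what part they have in the values above was not tested. The 10 fibroblast markers summed to 1391 FPKM in the shTaz column and 2188 FPKM in the shLuc column. The sum follows the collagen gene Col1a1, with 841 FPKM in the shTaz column and 1375 FPKM in the shLuc column. Of 9 measured genes 5 were 2-fold lower, beside 3.25% of all genes. Col3a1 was level, with 371 FPKM in the shTaz column and 372 FPKM in the shLuc column. Lum was at -0.25, and Pdgfra was higher in the shTaz column, at 0.58. Dpt, a dermal matrix gene, had 1.16 FPKM in the shTaz column and 18.4 FPKM in the shLuc column. Dcn (decorin) had 1.85 FPKM in the shTaz column and 13.8 FPKM in the shLuc column. These are genes of connective tissue matrix, as are Postn, at 8.29 FPKM in the shTaz column and 35.5 FPKM in the shLuc column, and the collagen gene Col1a2, at 138 FPKM in the shTaz column and 334 FPKM in the shLuc column.

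The 8 skeletal muscle markers, 7 of them listed, summed to 33.9 FPKM in the shTaz column and 3.80 FPKM in the shLuc column, where Acta1 and Myh4 were listed at 0. All 5 measured ones were 2-fold higher in the shTaz column, beside 3.96% of all genes. Acta1, Ckm, Mylpf and Des were below 1 FPKM in the shLuc column, so they passed the filter only through the shTaz column. The filter thus favored genes higher there, and the count cannot be read apart from it. Actn3, which the filter left out, had 0.510 FPKM in the shTaz column and 0.454 FPKM in the shLuc column. Acta1, the skeletal muscle actin gene, had 14.9 FPKM in the shTaz column, and the differences of Mylpf, Tnnt3 and Des, all genes of the contractile apparatus or its scaffold, were 1.82, 1.78 and 1.34. The 8 endothelial markers summed to 97.8 FPKM in the shTaz column and 149 FPKM in the shLuc column. Of the 7 measured ones 0 differed 2-fold, beside 7.21% of all genes. Plvap alone had 36.2 FPKM in the shTaz column and 67.2 FPKM in the shLuc column. Plvap at -0.88 and Cldn5 at -0.76 were the widest apart, and with both trends removed they were at -0.42 and -0.22. Pecam1 at -0.08 and Cdh5 at -0.10 were near level, and Kdr was at 0.45. The list median was -0.46, or -0.22 with both trends removed. The 8 macrophage markers summed to 2561 FPKM in the shTaz column and 2915 FPKM in the shLuc column, but the sum follows the complement gene C1qa, with 1470 FPKM in the shTaz column and 1868 FPKM in the shLuc column. As single genes 4 of the 8 lay above 0 and 4 below, with a median of 0.17 and the widest differences those of Mrc1 at 0.71 and Itgam at 0.63. The 6 listed keratinocyte markers summed to 13.5 FPKM in the shTaz column and 11.0 FPKM in the shLuc column, with Sfn at 0.91 and Krt14 at -0.41, and Trp63 was listed at 0 in the shLuc column.

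Of 11 neuroendocrine markers, 5 were listed, with a sum of 46.7 FPKM in the shTaz column and 53.1 FPKM in the shLuc column. Ncam1, a neural adhesion gene, made up most of this, with 43.8 FPKM in the shTaz column and 39.8 FPKM in the shLuc column. Of the 3 measured markers 1 was 2-fold lower and 0 higher, beside 3.25% and 3.96% of all genes. The gene past 2-fold was Uchl1, a ubiquitin hydrolase gene of neurons, with 1.51 FPKM in the shTaz column and 10.1 FPKM in the shLuc column. Its difference was -2.14, or -1.74 with both trends removed. Nkx2-1, a lung transcription factor gene, had 0.939 FPKM in the shTaz column and 2.51 FPKM in the shLuc column. Syp (synaptophysin) had 0.447 FPKM in the shTaz column and 0.557 FPKM in the shLuc column, and Insm1 had a 0 in the shTaz column against 0.169 FPKM in the shLuc column. Neurod1, Chga, Chgb, Calca, Dll3 and Grp were not listed.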

How the data were processed

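RNA sequencing of subcutaneous tumors was analysed for 2 groups, shTaz and shLuc. The authors deposited FPKM values in 1 column for each group, whose heading equals the description label that both samples of a group carry. TopHat, Trim Galore and genome build mm10 are named in the submitters' processing notes. Versions, the FPKM program, the annotation, strand setting and the way samples were combined are not given in the sources used here. Depth is unknown, so no counting interval is given.

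The plan was a limma test if the table had a column for each sample. With 1 column per group no test was run. Differences are log2((shTaz FPKM + 1) / (shLuc FPKM + 1)), unscaled, for genes averaging 1 FPKM or more. Members and lists were chosen with earlier results of these data known. Named were all 8 members, Taz, and in each list up to 4 genes past 2-fold, or else the 2 that differed most; the 3 genes nearest to Wwtr1 were named too. Other genes in the text were chosen after their values were seen. GC content, length and positions came from the longest transcript in GENCODE M21 (mm10), which covered 95.1% of the 11650 genes. Lowess used a span of 0.3 (statsmodels 0.14.6, Python 3.11.15). A marker gene of the planned lists is not reported here. The procedure was tested on simulated data.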

Additional observations from a re-analysis of the deposited data

How the results depend on the processing

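The alternatives were removal of the trend with GC content, with length or with both, quantile normalization, median-ratio scaling, a pseudocount of 0.1, and either no filter on low values or a floor of 5 FPKM on the mean. Using genes above 0 in both columns without a pseudocount, and the longest coding transcript, were added after seeing the data. The count of members past 2-fold was 0 as reported and 1, namely Wwtr1, with the GC trend removed, with both trends removed and with both removed on coding transcripts. The count of YAP and TAZ targets past 2-fold was 1 as reported. It was 2 with a pseudocount of 0.1, quantile normalization, the GC trend removed, both trends removed and both removed on coding transcripts. With median-ratio scaling it was 3, all lower in the shTaz column. Without a pseudocount it was also 3, of which 2 were lower and 1 higher. In that last setting 1045 of all genes were 2-fold higher and 534 lower. The Tead1 share on the fragment scale was 38.6% in the shTaz column and 30.7% in the shLuc column, or 40.2% and 32.3% in the same order with coding lengths, and the Tead3 share in the shTaz column was 17.9% with coding lengths. The Wwtr1 share of the coactivator pair stayed between 52.8% and 58.6% in the shTaz column and between 70.8% and 75.4% in the shLuc column. Of all genes, 461 were 2-fold higher and 379 lower, against 309 and 494 with median-ratio scaling, 294 and 455 with quantile normalization, 297 and 390 without the length trend, 166 and 350 without the GC trend, and 191 and 302 without either. With a pseudocount of 0.1 it was 996 and 548. No member difference was past 2-fold as reported, so a change of sign past 2-fold could not occur among them. Below 2-fold, the differences of Yap1, Tead2 and Tead3 did change sign, as did the median of the target list. No replicate could be left out, since the table has 1 column per group. No paired analysis was possible because the columns carry no replicate number. The depth behind each value is unknown, which limits Tead4 and Vgll3 most, the members of lowest FPKM.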

Other observations

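The MCAT letters in promoters were also set against the differences of all genes. Of the measured genes in the promoter table, 1126 have GGAATG, or else CATTCC, within 250 bases upstream of a start and 7754 do not. The median log2 difference between the shTaz and shLuc columns was 0.08 for genes with the letters and 0.12 for genes without. Genes with a 2-fold difference made up 6.48% of the genes with the letters and 6.77% of those without. Once both trends, of length and of GC content, had been taken out, the medians were -0.0014 for genes with the letters and 0.0015 for genes without. The windows leave out enhancers, where many TEAD sites are known to lie.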
